A study of Rattus norvegicus with 14 samples.

Results

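The genes described here are those of the pigment cell, 10 in all: Tyr, Tyrp1, Dct, Pmel, Mlana, Mitf, Slc45a2, Oca2, Trpm1 and Gpr143. They were looked up by symbol among array probe sets annotated with exactly 1 gene, and 8 were found, each on 1 probe set, among 14497 genes tested. Dct and Pmel were not analysed here. Foreskin was collected on postnatal day 5 from Sprague Dawley rat pups, whose dams had been gavaged daily on gestational days 16 to 20. The dams were given corn oil, the vehicle, or flutamide at 5 mg/kg/day, an antiandrogen that blocks the androgen receptor. Both groups held 7 litters, and each sample was RNA of 2 foreskins of 1 litter pooled on 1 Affymetrix Gene 1.0 ST array, so the litter was the replicate and a difference between littermates cannot be seen. All values are log2 values made by RMA, an array method that corrects background, normalises between arrays and summarises the probes of a set. The question was whether blocking androgen action before birth altered these genes in the foreskin.

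Melanocytes come from the neural crest and settle in the epidermis and the hair follicles, where they make melanin in a specialised organelle, the melanosome. The transcription factor Mitf switches on the enzymes and melanosome proteins, and Tyr, Tyrp1 and Dct carry out the chemistry. Pmel forms the fibrils on which pigment is laid down, and Mlana is needed for the processing of Pmel. Slc45a2 and Oca2 set the conditions inside the organelle. Sprague Dawley rats are albino: tyrosinase, the product of Tyr, does not work in albino rat strains, but albino skin can still hold melanocytes. Mitf is also used by mast cells and osteoclasts, Trpm1 by retinal neurons and Gpr143 by the pigment epithelium of the eye.

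Mitf is known to bind a DNA letter pattern, CATGTG, upstream of pigment genes, and the promoters that hold it are shown because they tie members of the set together by sequence. RefSeq promoters of the GRCr8 assembly were at hand for 9 of the 10 genes, and the 250 bases before each start site were searched on both strands. Those of 5 genes held CATGTG, and in each of the 5 a match lay within a longer shared run, GTCATGTGC, a pattern chosen after the sequences were read. CATGTG occurred in 12.1% of 33469 promoters searched over the same length, and GTCATGTGC in 0.137%, or 46 promoters. The 60 bases around the shared run are given 5′ to 3′ on the strand of the gene, with the run in capitals; in Mlana and Gpr143 it lies on the opposite strand and reads GCACATGAC.
Tyr (chr1:150622946-150623005, minus strand): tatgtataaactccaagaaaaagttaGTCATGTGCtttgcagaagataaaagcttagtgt
Tyrp1 (chr5:100327030-100327089, plus strand): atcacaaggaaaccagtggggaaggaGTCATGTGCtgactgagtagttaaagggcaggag
Dct (chr15:101508135-101508194, minus strand): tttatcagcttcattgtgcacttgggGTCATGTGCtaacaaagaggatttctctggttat
Mlana (chr1:236882844-236882903, plus strand): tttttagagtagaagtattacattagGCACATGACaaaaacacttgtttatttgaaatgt
Gpr143 (chrX:25498541-25498600, plus strand): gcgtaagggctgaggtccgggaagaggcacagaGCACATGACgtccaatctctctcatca
The run ended 113 bases before the start site in Tyr, 60 in Tyrp1, 130 in Dct, 196 in Mlana and 18 in Gpr143. Tyr held a further CATGTG outside the run. The windows of Mitf, Oca2, Trpm1 and Pmel held neither pattern, which says only that these letters are not in these windows. A match is a run of letters and shows no binding.

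Of the 8 genes measured, 7 lay near the floor of the array and 1, Mitf, lay above it. No detection calls were used, so the floor was taken from 1253 receptor genes of the nose (olfactory, vomeronasal and trace amine receptors), which foreskin would not be thought to use. Their mean values over the 14 litters ran from 1.43 to 6.52 with a median of 3.62, and the floor was set at their 95th percentile, 5.31, at or under which lay 32.1% of all genes. Background differs between probe sets, so a place in this order is not an order of RNA amount. Tyr was the dimmest, at a mean of 3.73, brighter than or equal to 53.4% of the receptor genes, close to their middle. Mlana had a mean of 4.14 and Tyrp1 one of 4.47, at or above 67.7% and 77.7% of the receptor genes.

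Trpm1, Oca2 and Slc45a2 followed at means of 4.63, 4.76 and 4.78, at or above 82.7%, 85.8% and 86.1% of the receptor genes. Gpr143, at 5.07, was the gene just under the floor, by 0.24. Mitf, at 5.62, was the gene just over it, by 0.31, and was brighter than 97.0% of the receptor genes. These places depended on where the floor was set. With the 90th percentile of the receptor genes, or with the lower quartile of all genes, Mitf and Gpr143 were both above, and with the 99th percentile, or with the median of all genes, none of the 8 was. For the tissue itself, all 4 measured keratinocyte markers and all 6 fibroblast markers lay above the floor, Krt1, a keratin of differentiating epidermis, at 11.94 and Col1a2, a fibrillar collagen gene, at 9.29.

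**Figure D1:**
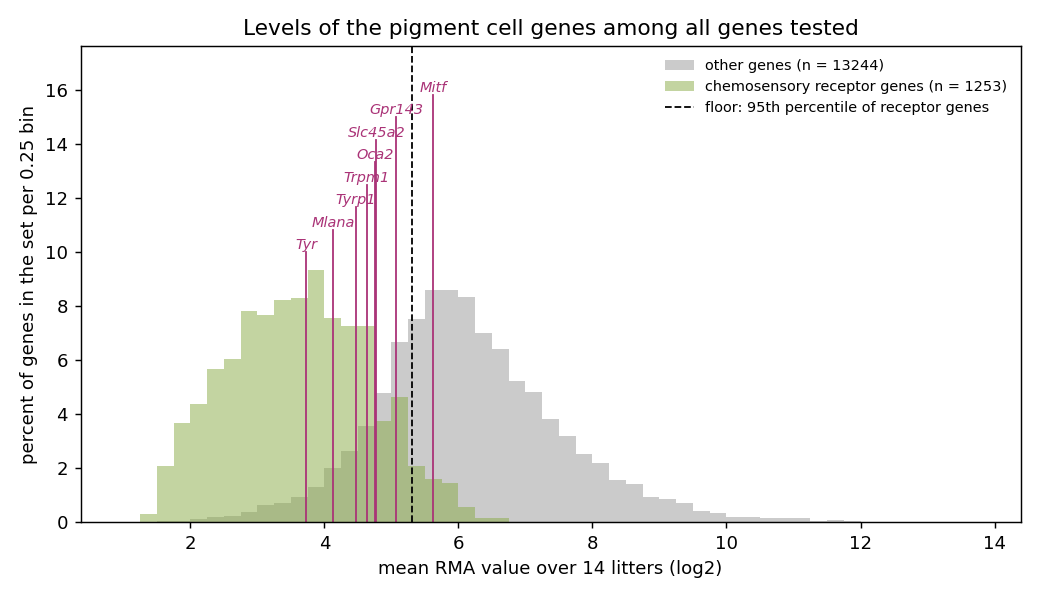
Histogram of the mean RMA value of each gene over 14 litters (log2, horizontal axis) as percent of the genes in each set (vertical axis), for receptor genes of the nose and for all other genes, with the 8 pigment genes as vertical lines whose heights carry no value. Only Mitf, at 5.62, stands to the right of the floor of 5.31, and Tyr, at 3.73, lies near the middle of the receptor genes.

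None of the 8 genes passed the comparison of flutamide with corn oil litters. In limma's moderated test over all 14497 genes with Benjamini-Hochberg adjustment, 0 of the 8 had an adjusted p under 0.05, where 1 gene of all did, or 0.0069%. The smallest adjusted p among the 8 was 0.447 in limma, for Tyrp1. Without adjustment 3 of the 8 had a limma p under 0.05, namely Tyrp1, Slc45a2 and Gpr143, all with higher values in flutamide litters, against 5.7% of all genes in that direction and 9.16% in either. Without corn oil replicate 5 the count was 1, Tyrp1. The genes were taken up with these results already known, so the count is a description and not support for a change. In bulk tissue, a change in the number of pigment cells and a change in RNA per pigment cell cannot be told apart.

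Of the 8 genes, 6 had a higher and 2 a lower mean in flutamide litters, where 52.3% of all genes had a higher one. All 8 differences were small. The 95% confidence intervals of all 8 genes stopped short of 1.5-fold up or down, and the farthest bound was 1.28-fold. RMA compresses differences of dim probe sets, so these bounds concern array values. The groups overlapped for all 8 genes, while over all genes 0.124% did not overlap.

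**Figure D2:**
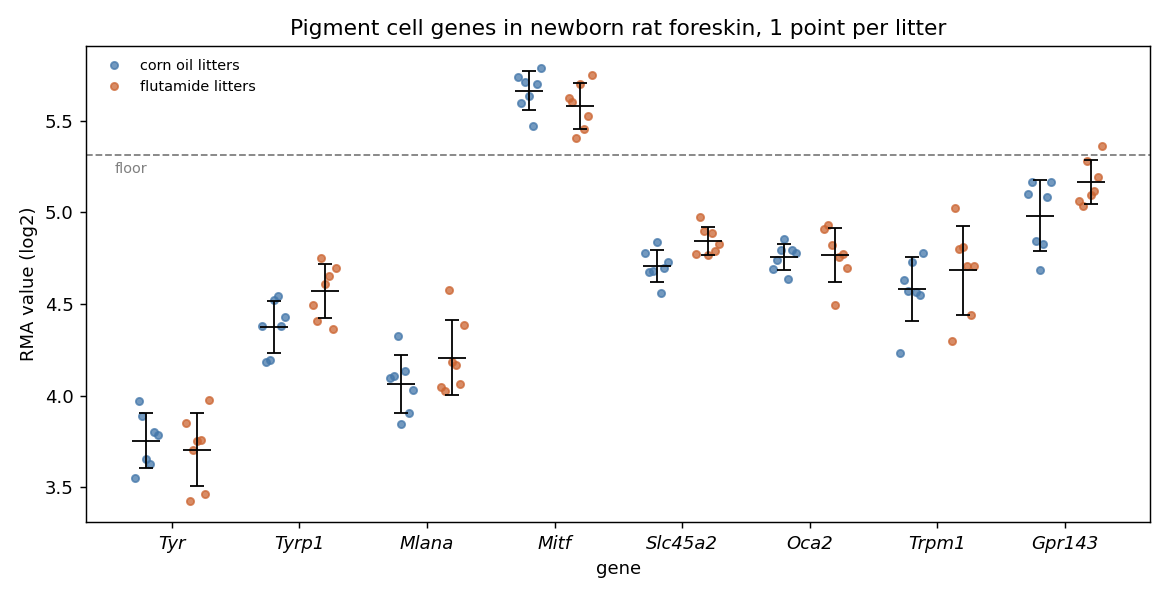
RMA values (log2, vertical axis) of the 8 pigment genes (horizontal axis), 1 point per litter, with the mean and SD of each group of 7 litters in black. The groups overlap for every gene, and the dashed line is the floor at 5.31, which 1 flutamide litter reached for Gpr143.

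Mitf, the regulator of the set and the gene above the floor, had slightly lower values in flutamide litters. Corn oil litters ran from 5.47 through a median of 5.70 to 5.79, and flutamide litters from 5.41 through 5.60 to 5.75. Only 2 of 7 flutamide litters exceeded the corn oil median, and the lowest value of all was that of flutamide replicate 3. Corn oil litters averaged 5.66 ± 0.11 and flutamide litters 5.58 ± 0.12 (SD, n = 7 each). The difference of -0.08 (95% confidence interval -0.22 to 0.05) had an adjusted p of 0.742 in limma and an exact permutation p of 0.202. With 1 litter left out it lay between -0.12, without corn oil replicate 5, and -0.05, without flutamide replicate 3. The probe set does not separate the several promoters from which Mitf is transcribed, of which 1 is used by melanocytes.

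Of the enzyme genes measured, Tyr had a slightly lower and Tyrp1 a higher mean in flutamide litters, and neither passed after adjustment. The contrast between them was not tested. Tyr, which encodes the enzyme of the first step of melanin synthesis, ran from 3.55 through a median of 3.78 to 3.97 in corn oil and from 3.43 through 3.75 to 3.97 in flutamide litters. The ranges nearly coincide. Its difference was -0.05 (interval -0.23 to 0.13), with a limma adjusted p of 0.908 and an exact permutation p of 0.607. With 1 litter left out it lay between -0.09, without flutamide replicate 7, and -0.002, without flutamide replicate 2.

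Tyrp1, a tyrosinase relative that shapes brown-black pigment, had the largest difference of the 8. Corn oil litters ran from 4.18 through a median of 4.38 to 4.54, and flutamide litters from 4.36 through 4.61 to 4.75. Above every corn oil litter stood 4 flutamide litters, and below every flutamide litter 2 corn oil litters. Corn oil litters averaged 4.38 ± 0.14 and flutamide litters 4.57 ± 0.15 (SD, n = 7 each). The difference of 0.19 (SE 0.08, interval 0.04 to 0.35), a 1.14-fold level, had a limma p of 0.0191, which was 0.447 after adjustment. The exact permutation p was 0.0315, where the smallest that 7 against 7 litters allow is 0.000583. With each litter removed in turn the difference stayed between 0.16 and 0.23.

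Mlana, a small membrane protein needed for the processing of Pmel, ran from 3.85 through 4.10 to 4.33 in corn oil and from 4.03 through 4.17 to 4.58 in flutamide litters. The highest value belonged to flutamide replicate 3, which was also highest for Tyrp1. The difference of 0.14 (interval -0.04 to 0.33) had a limma adjusted p of 0.656 and an exact permutation p of 0.171. Leaving out 1 litter at a time gave 0.08 to 0.19.

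Of the melanosome transporters, Slc45a2 had higher values in flutamide litters with a p under 0.05 in both tests before adjustment, and Oca2 had nearly equal means. Slc45a2, which raises the pH of the melanosome, ran from 4.56 through 4.70 to 4.84 in corn oil and from 4.77 through 4.82 to 4.97 in flutamide litters. All 7 flutamide litters lay above the corn oil median, and 5 corn oil litters lay below every flutamide litter. Corn oil litters averaged 4.71 ± 0.09 and flutamide litters 4.84 ± 0.08 (SD, n = 7 each). The difference of 0.14 (SE 0.06, interval 0.02 to 0.25) had a limma p of 0.0243 and an adjusted p of 0.477. The exact permutation p was 0.00991, the smallest of the 8 genes, none of these exact p-values being adjusted. The difference stayed between 0.11 and 0.16 with each litter removed in turn.

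Oca2, an anion channel of the melanosome, ran from 4.64 through 4.78 to 4.85 in corn oil and from 4.49 through 4.77 to 4.93 in flutamide litters. Both its lowest and its highest value were flutamide litters, replicates 4 and 2. The difference was 0.01 (interval -0.12 to 0.15; limma adjusted p = 0.976), and its sign turned, to -0.01 each time, when corn oil replicate 5, flutamide replicate 1 or flutamide replicate 2 was left out.

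Trpm1, a cation channel first known from melanoma, ran from 4.23 through 4.57 to 4.78 in corn oil and from 4.30 through 4.71 to 5.02 in flutamide litters. It had the widest spread of the 8, with an SD of 0.21 over the 14 litters. The lowest value was that of corn oil replicate 1 and the highest that of flutamide replicate 2. The difference of 0.10 (interval -0.11 to 0.31) had a limma adjusted p of 0.794 and an exact permutation p of 0.374. The difference was 0.05 when corn oil replicate 1 was left out, and likewise 0.05 when flutamide replicate 2 was. It was 0.17 when flutamide replicate 1 was left out, with an unadjusted limma p of 0.0825.

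Gpr143, a receptor of the melanosome membrane, ran from 4.68 through a median of 5.09 to 5.17 in corn oil and from 5.04 through 5.12 to 5.36 in flutamide litters. The medians differed little, and 3 corn oil litters lay below every flutamide litter while 3 flutamide litters lay above every corn oil litter. Corn oil litters averaged 4.98 ± 0.19 and flutamide litters 5.16 ± 0.12 (SD, n = 7 each). The difference of 0.18 (SE 0.08, interval 0.01 to 0.35) had a limma p of 0.0367 and an adjusted p of 0.516, and the exact permutation p was 0.0612. Leaving out 1 litter at a time gave 0.13 to 0.21.

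**Figure D3:**
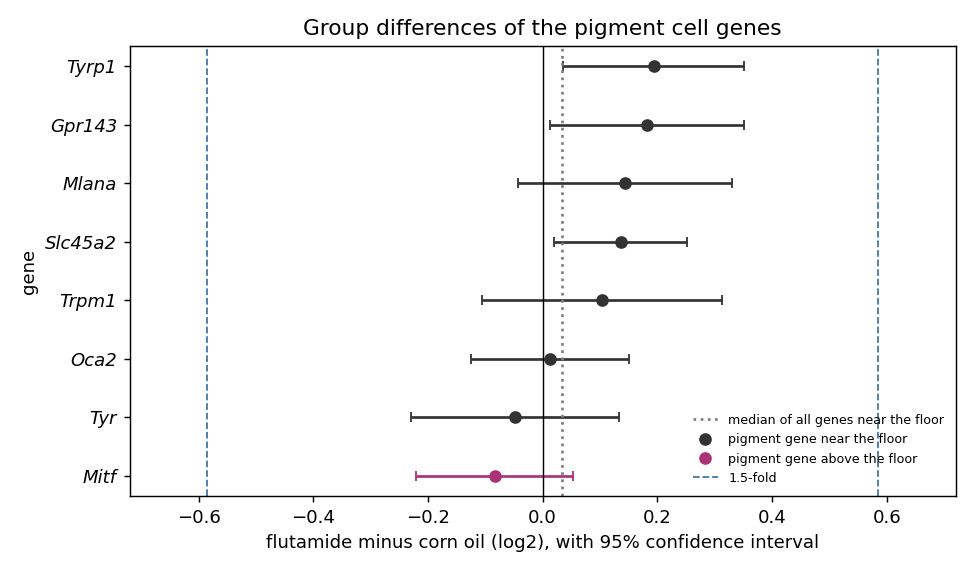
Difference between flutamide and corn oil litters (log2, horizontal axis) for each pigment gene (vertical axis), with limma's 95% confidence interval and lines at 0, at a 1.5-fold change and at the median of all genes near the floor. The intervals of Tyrp1, Gpr143 and Slc45a2 exclude 0 before any adjustment, and all 8 lie inside the 1.5-fold lines.

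Set beside their differences, the 4 measured genes with the run GTCATGTGC upstream stood at -0.05 (Tyr), 0.19 (Tyrp1), 0.14 (Mlana) and 0.18 (Gpr143). Those whose windows held neither pattern stood at -0.08 (Mitf), 0.01 (Oca2) and 0.10 (Trpm1). The ranges overlap, and the genes are too few for any comparison.

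Genes near the floor as a whole also had slightly higher values in flutamide litters. Of 4647 such genes, 61.9% had a difference above 0, with a median of 0.03, and 9.19% had higher values at an unadjusted limma p under 0.05. Of the 9850 genes above the floor, 47.7% had a difference above 0, with a median of -0.004. The 7 pigment genes near the floor had a median difference of 0.14, and 6 of them were above 0. This shift of dim genes was smaller after rescaling. The share above 0 was 57.8% after the median of every sample was set equal and 50.2% after quantile normalisation. Quantile normalisation gives every array the same set of values, so it removes a general shift of dim genes by design. The 50.2% therefore follows largely from the method, and the source of the shift was not tested. Over all genes the unadjusted calls were 826 higher and 502 lower as deposited, 668 and 641 after centring, and 705 and 646 after quantile normalisation. All 8 pigment genes had lower differences after quantile normalisation than as deposited. Tyrp1, Gpr143 and Slc45a2 had differences of 0.16, 0.17 and 0.11 (limma p of 0.0439, 0.0459 and 0.0740, unadjusted). Mlana was at 0.11, Trpm1 at 0.07, Oca2 at -0.02, Mitf at -0.09 and Tyr at -0.10.

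The spread of each array, the SD of its gene values, was set beside the pigment genes, and no relation passed after adjustment over the 8. It ran from 1.52 to 1.60 in corn oil and from 1.48 to 1.57 in flutamide litters. Corn oil replicate 1 had the widest spread and flutamide replicate 7 the narrowest. Across all genes near the floor, 75.5% had a negative correlation with it over the 14 litters, against 37.3% of genes above the floor. Of the pigment genes, Tyr had the strongest correlation with it, with a Pearson r of -0.64 (permutation p = 0.0129, adjusted over the 8 genes 0.104) and a Spearman rho of -0.64 (permutation p = 0.0174, adjusted 0.139). It was -0.69 within corn oil and -0.79 within flutamide litters, and -0.47 without those same litters at the ends.

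Gpr143 had an r of -0.49 (permutation p = 0.0782, adjusted 0.301; rho -0.42, permutation p = 0.141, adjusted 0.375). Within groups r was -0.18 for corn oil and -0.77 for flutamide litters. Tyrp1 had an r of -0.31 (permutation p = 0.286, adjusted 0.572) and a rho of -0.28 (permutation p = 0.332, adjusted 0.664). Its r was 0.38 in corn oil and -0.68 in flutamide litters, and 0.01 without both end litters. Mlana had an r of -0.44 (permutation p = 0.113, adjusted 0.301). Trpm1, Mitf and Oca2 had r of -0.22, 0.03 and 0.12. For Slc45a2 r was 0.05 (permutation p = 0.869, adjusted 0.913; rho 0.10, permutation p = 0.736, adjusted 0.736). With array spread as a covariate the Tyr difference was -0.13, that of Gpr143 0.14 with a limma p of 0.103, that of Tyrp1 0.18 with a limma p of 0.0395 and that of Slc45a2 0.16 with a limma p of 0.0121. Without both end litters the differences were 0.17 for Tyrp1, 0.17 for Gpr143 and 0.15 for Slc45a2, with unadjusted limma p of 0.0533, 0.0635 and 0.0238.

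**Figure D4:**
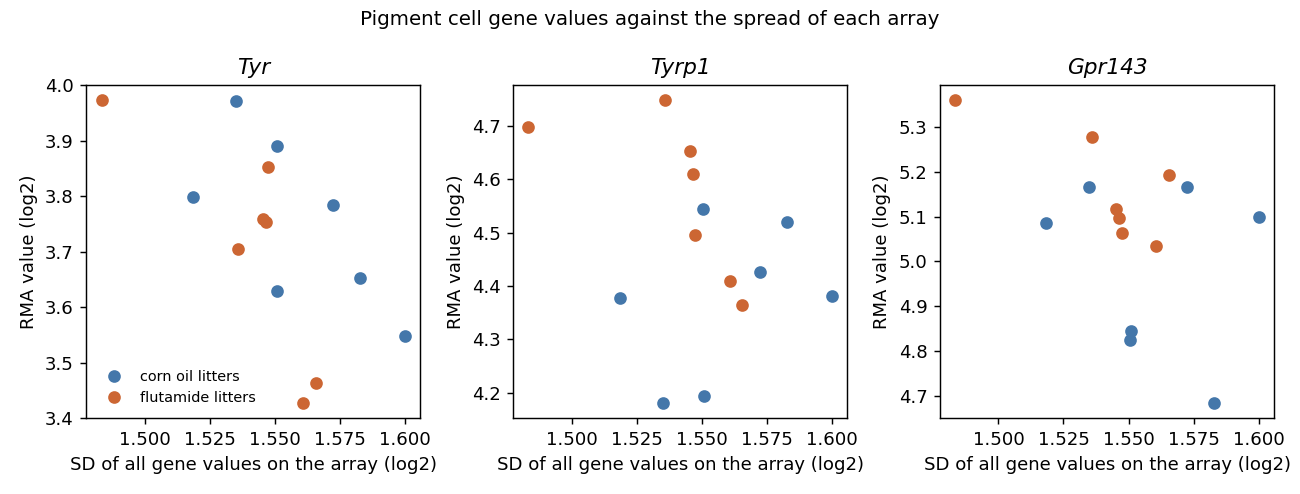
RMA values of Tyr, Tyrp1 and Gpr143 (log2, vertical axes) against the SD of all gene values on the same array (log2, horizontal axes), 1 point per litter coloured by group. The flutamide litter at the far left, replicate 7, has the narrowest array, 1.48, and the highest Tyr and Gpr143 values, and the r of Tyr with the spread is -0.64.

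No pair of pigment genes was correlated past the threshold from litter to litter. Over the 14 litters, none of the 28 pairs had a permutation p under 0.05, adjusted or not. Pearson's r ran from -0.35 to 0.47 with a median of 0.05, and 16 of 28 were above 0. With group means removed, r ran from -0.34 to 0.52 with a median of 0.01. The closest pair was Mlana and Gpr143, with an r of 0.47 (permutation p = 0.0864, adjusted over the 28 pairs 0.712) and a rho of 0.45 (permutation p = 0.105, adjusted 0.524). It was 0.04 in corn oil and 0.79 in flutamide litters, and 0.10 without flutamide replicates 3 and 7, the litters farthest out for Mlana. With 1 litter left out it ran from 0.29, without corn oil replicate 4, to 0.65, without corn oil replicate 3, so it rests on a few litters of both groups. Within groups of 7 litters r varied widely, and these values and their differences were not tested. Tyrp1 and Mlana had an r of -0.57 in corn oil and 0.86 in flutamide litters, Tyr and Tyrp1 one of -0.79 and 0.71, and Slc45a2 and Trpm1 one of -0.003 and 0.73. With group means removed, the highest r was that of the transporters Slc45a2 and Oca2, 0.52.

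Mitf showed no closer tie with Tyr, Tyrp1 and Mlana, which are among the genes it is known to drive. Its r was 0.30 with Tyr (rho 0.35), -0.35 with Tyrp1 (rho -0.19) and -0.28 with Mlana (rho -0.14). The permutation p of these r values were 0.293, 0.224 and 0.331, each 0.712 after adjustment over the 28 pairs, and those of rho 0.225, 0.513 and 0.627, or 0.699, 0.878 and 0.878 adjusted. With the other measured pigment genes the r of Mitf was -0.19 (Slc45a2), -0.14 (Oca2), -0.11 (Trpm1) and 0.02 (Gpr143). The genes set against Mitf all lay near the floor, and its probe set does not separate its promoters. This limits what these r values can show. Among all other 14496 genes ordered by likeness to a given pigment gene (r over 14 litters, group means removed), the best placed pigment gene was Oca2, at place 453 in the order for Slc45a2, and for Mitf it was Tyr, at place 2524. With so few litters high values of r are common among so many genes, and the places are a description.

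**Figure D5:**
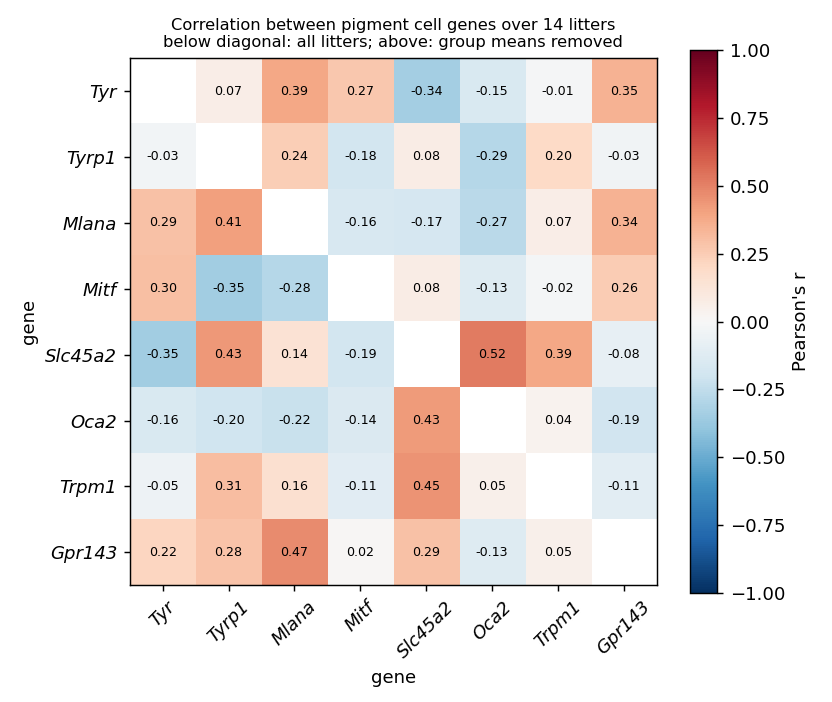
Pearson's r between each pair of the 8 pigment genes over 14 litters (colour and printed value), below the diagonal for all litters and above it with group means removed. Values are scattered around 0, from -0.35 to 0.47 below and -0.34 to 0.52 above the diagonal.

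The genes most like each pigment gene were from no list used here but for Mlana and Trpm1, which had receptor genes of the nose among their nearest. Those nearest to Tyr were Podxl2, Tspan9 and Kirrel3 (r from 0.88 to 0.92), and to Tyrp1 Trip10, Inka1 and Pycr1 (0.82 to 0.85). To Mitf they were Acy1, Gfpt2 and Casp9 (0.82 to 0.90), and to Slc45a2 Shq1, Cacybp and Trpc5 (0.82 to 0.85). Nearest to Oca2 were Spem1, Usp28 and Steap4 (0.85 to 0.87), and to Gpr143 Iqcf3, Ror2 and Rfng (0.85 to 0.86). For Mlana they were Or14a258, Ormdl3 and Or4c117 (0.90 to 0.91), and for Trpm1 Dnmt3b, Insig1 and Or2av10 (0.82 to 0.88), where Or14a258, Or4c117 and Or2av10 are olfactory receptor genes. Receptor genes of the nose made up 1253 of the 14497 genes tested, so their presence is a description and no trait of Mlana or Trpm1.

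The wider pigment pathway gave no call either. Of 50 genes listed for the lineage, the hormonal switch and the melanosome, 45 were measured and 37 lay above the floor. In limma over all genes 0 rose and 0 fell after adjustment. Without adjustment 4 were higher and 2 lower, against 5.7% and 3.46% of all genes, and the median difference of the 45 was -0.01 against 0.005 for all genes.

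Among the lineage regulators, 10 of 12 measured genes had lower and 2 higher values in flutamide litters, with a median of -0.04. Ednrb and Tfe3 were listed but not measured. Tfeb, a relative of Mitf that governs lysosome genes, averaged 5.62 ± 0.05 in corn oil litters and 5.50 ± 0.06 in flutamide litters (SD, n = 7 each), which differ by -0.11 with a limma adjusted p of 0.499. Edn3, the endothelin that melanoblasts need to expand, was near the floor and differed by 0.14 (SE 0.06; limma adjusted p = 0.512). Kit, the stem cell factor receptor, and Sox10, a neural crest factor upstream of Mitf, were chosen after their values were seen. They had means of 5.71 and 5.89, above the floor, and differences of -0.10 and -0.06. Both serve other cells too, Kit mast cells and Sox10 Schwann cells.

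In the melanocortin list, the hormonal switch between dark and yellow pigment, 5 of 7 measured genes were higher and 2 lower. Mc1r, the pigment receptor of this switch, was listed but not measured. Mc5r, a melanocortin receptor of skin glands, lay near the floor and differed by 0.13 (SE 0.06; limma adjusted p = 0.542). Asip, the agouti protein that blocks the pigment receptor, differed by 0.10 (SE 0.07; limma adjusted p = 0.723). Among genes of melanosome assembly and transport, 13 of 26 were higher and 13 lower. Bloc1s5, a subunit of the BLOC-1 sorting complex, differed by -0.13 (SE 0.05; limma adjusted p = 0.476), and Hps6, a subunit of the BLOC-2 complex, by 0.20 (SE 0.08; limma adjusted p = 0.490). These complexes also serve lysosomes in other cells.

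Markers of other cells that use some of these genes, or that surround pigment cells, were read beside them. For comparison, 52.3% of all genes and 47.7% of genes above the floor had a difference above 0. Of 10 mast cell markers 8 were lower in flutamide litters, with a median of -0.07, and none had an unadjusted limma p under 0.05. Mean levels of the list per litter ran from 5.79 to 6.06 in corn oil and from 5.71 to 5.98 in flutamide litters. The mast cell proteases Cma1 and Cpa3 differed by -0.16 and -0.14, with limma adjusted p of 0.707 and 0.711. Of 8 macrophage and osteoclast markers 6 were lower, with list means from 5.83 to 6.15 and from 5.77 to 5.95. In it Cd163, a macrophage scavenger receptor that lay just under the floor, differed by -0.21 (limma adjusted p = 0.348) and Ctsk, the osteoclast protease cathepsin K, by -0.11 (limma adjusted p = 0.708). Of 8 Schwann cell markers 6 were lower, with list means from 5.85 to 6.09 and from 5.92 to 6.06. In it Prx, the myelin protein periaxin, differed by 0.14 and S100b by 0.11, with limma adjusted p of 0.601 and 0.700.

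All 6 measured hair follicle markers were lower in flutamide litters, with a median of -0.15 and list means from 6.97 to 7.36 in corn oil and from 6.92 to 7.15 in flutamide litters. All 6 lay above the floor, where 47.7% of genes had a difference above 0. Dsg4, a cadherin of the hair shaft, and Krt73, a keratin of the inner root sheath, differed by -0.29 and -0.30. Their limma p were 0.000265 and 0.000343, each 0.302 after adjustment. Without adjustment 3 of the 6 were lower at a limma p under 0.05, against 3.46% of all genes. The list was chosen with earlier results of these data known, so the count is a description. Keratinocyte markers were higher for 2 and lower for 2 of 4, with list means from 10.8 to 10.9 in corn oil and from 10.7 to 10.9 in flutamide litters, where Krt1 differed by 0.05 and Krt14, a basal keratin, by -0.06. Fibroblast markers were higher for 4 and lower for 2 of 6, with list means from 9.22 to 9.35 and from 9.21 to 9.41, where Col1a2 differed by 0.08 and Col1a1 by 0.07. No member of these lists passed in limma over all genes. The part of these cells in the values of the pigment genes was not tested.

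By litter, the 7 pigment genes near the floor were most often high in 3 flutamide litters. Counting for each litter the genes above their own 14-litter median, corn oil litters had from 2 to 4 of the 7, and flutamide litters from 2 to 6. Flutamide replicates 3, 5 and 7 had 6 each, and the median of both groups was 3. The same count over all genes near the floor is not given here. Of those genes 61.9% had a difference above 0, so the counts cannot be read as a trait of the pigment genes.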

How the data were processed

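The values deposited by the authors are on a log2 scale, as read from their range, for 28826 probe sets in 14 samples, and were made with RMA per the submitters' processing notes. The RMA version was not given in the sources used here. Values ran from 0.669 to 13.8, and sample medians over the genes tested lay within 0.045 of each other. Per the labels' protocols, RNA was amplified and biotin-labelled with NuGEN kits. The number of arrays limits the precision.

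Probe sets with 1 symbol in GEO's platform annotation (15209) were used, symbols being updated by gene number through RefSeq's GRCr8 table for 14471 of 14497 genes; the brightest probe set stood for the 494 genes with several. The comparison used lmFit and eBayes of limma 3.58.1 (R 4.3.3), two-sided, with p-values adjusted by Benjamini-Hochberg over all genes, threshold 0.05. Single genes were also given a two-sided exact permutation test over 3432 splits. Correlations used two-sided tests of 100000 permutations (SciPy 1.17.1). Both were tested on simulated data.

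Named were the members, the 2 genes of smallest p per fixed list and the 3 genes most like each member; Kit and Sox10 were added after their values were seen. Members and lists were chosen with earlier results of these data known; the relations with array spread and the sequence patterns were chosen after seeing the data. Replicate numbers are shared between groups but mark no stated pairing.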

Additional observations from a re-analysis of the deposited data

Results flagged for a closer look

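Trpm1 in corn oil replicate 1 had a value of 4.23, set apart below the other 6 corn oil litters by a gap large for the range of the group. The same litter had the widest spread of array values. Without it the Trpm1 difference was 0.05 in place of 0.10. Of the 16 groups of 7 litters examined (8 genes in 2 groups) this was the 1 with such a gap, and chance sets apart about 1 group in 20.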

How the results depend on the processing

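No pigment gene reached an adjusted p under 0.05 in any of the 193 alternative limma fits of a gene and setting, the smallest being 0.370 (Tyrp1, replicate block). Signs held for 7 of the 8 genes; Oca2 was -0.016 after quantile normalisation and between -0.014 and 0.059 when 1 litter was left out. The number at an unadjusted limma p under 0.05 was 1 in place of 3 without corn oil replicate 1 and flutamide replicate 7 together, and 1 to 3 with single litters left out, the 1 being without corn oil replicate 5. The number at an exact permutation p under 0.05 was 1 in place of 2 without both, and 1 to 3 with single litters left out. The number above the floor was 2 with the 90th percentile or the lower quartile of all genes and 0 with the 99th percentile or the median. Over all genes the 1 limma call became 2 among genes above the median level, with eBayes trend or with array spread as a covariate, 0 without both end litters, and 0 to 1 with single litters left out. With the replicate number as a block it was 0, with 1446 genes at an unadjusted p under 0.05; same-numbered samples correlated from -0.07 to 0.15, over 0.1 in 1 of 7 pairs, and 2 of 14 samples correlated best with their own number. Using the mean of probe sets left the values of the 8 genes as they were, since each had 1. The causes were not tested. Signal near the floor limits what 7 of the 8 genes can show.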
